A study of Arabidopsis thaliana with 21 samples.

Results

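The early response of wild-type Arabidopsis thaliana to arsenate was measured on 6 of the series' 21 arrays, chosen by their labels: 3 arrays of wild-type plants given 30 µM arsenate for 1.5 h and 3 arrays of wild-type plants left without supplement for the same time. The plants of these 6 arrays were of the Col-0 accession and carried no transgene. They had spent 7 days on medium with 1 mM phosphate and 2 days on medium without phosphate before they were moved to liquid medium, so the controls were phosphate-deprived too. The labels name whole plants and no organ, and give 3 independent biological samples per condition, 1 to each NimbleGen array.

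Arsenate resembles phosphate and enters plant cells through phosphate transporters, and its reduced form, arsenite, binds the thiol groups of proteins. Plants under such proteotoxic and oxidative stress are known to turn on chaperones, detoxifying enzymes and calcium and peptide signals, and to turn down genes of growth. Genes with a heat shock name in the gene table were left out of the largest changes named here. That does not remove heat shock genes listed by locus code alone, or a heat-named member of another family. Other gene families were described: transcription factors, calcium and receptor signalling, protein care, detoxification, growth hormones, the cell wall, and transport.

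The deposited values are log2 signals from RMA. They ran up to between 15.95 and 15.97 on the 6 arrays, array medians lay between 12.33 and 12.42, and replicate arrays correlated across features with Pearson's r between 0.9916 and 0.9955. Each of 26490 nuclear protein-coding loci was read from its brightest feature. Differences are arsenate minus control in log2 units, with standard errors and adjusted p-values from limma fitted over all 37118 features. A locus is said to rise or fall where its adjusted p was under 0.05 and its difference at least 1. With 3 arrays in each group, precision is limited throughout.

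Plant parts were checked through marker genes. Of 11 root markers, 0 rose and 6 fell, with a median difference of -1.13. Their mean level was 13.00 to 13.14 on the control arrays and 11.73 to 12.10 on the arsenate arrays. The root-hair regulator RHD6 (AT1G66470) fell by 2.04, while CASP1 (AT2G36100), a marker of the endodermis, differed by -0.03 near the top of the scale. Of 10 green-tissue marker loci, 0 rose and 1 fell, with a median difference of -0.02 and mean levels of 15.03 to 15.21 on control and 14.84 to 14.96 on arsenate arrays. The 6 pollen markers and 7 seed markers gave 0 calls and lay low, with median levels of 9.35 and 10.03. The seed list had a median difference of 0.51. An array signal has no true zero, so no marker can be called absent. In RNA from whole plants, fewer cells of a type and less RNA per cell cannot be told apart. Loci typed as pseudogenes, which also lay low (median level 9.43), stood 0.56 to 0.64 above the control mean on the arsenate arrays. For the groups below, the part of root transcripts or of this low-level shift in any count was not tested.

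Across protein-coding loci, 1076 rose (4.06%) and 1593 fell (6.01%), together 10.1%, and the median difference was -0.06. Without the size threshold, 10016 passed (37.8%), of which 3786 (14.3% of loci) were higher and 6230 (23.5%) lower. At 53% of loci, control and treated arrays occupied separate ranges. Over all features, which include pseudogenes and transfer RNAs, 7.11% rose (2640) and 5.03% fell (1868), together 12.1%. That order turned on leaving out 1 array: 1313 rose and 1819 fell without control replicate 3, and 1449 and 1824 without control replicate 1. Leaving out arsenate replicate 1 gave 1508 and 1762, and leaving out arsenate replicate 3 gave 1645 and 1886. Rises were the larger changes and falls the more frequent ones. Of the calls, 40.3% were rises, and 54.7% were when arrays were centred on the median of protein-coding features. This second scaling moved the median difference by 0.14, from -0.06 to 0.08, and the values below are given without it.

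**Figure D1:**
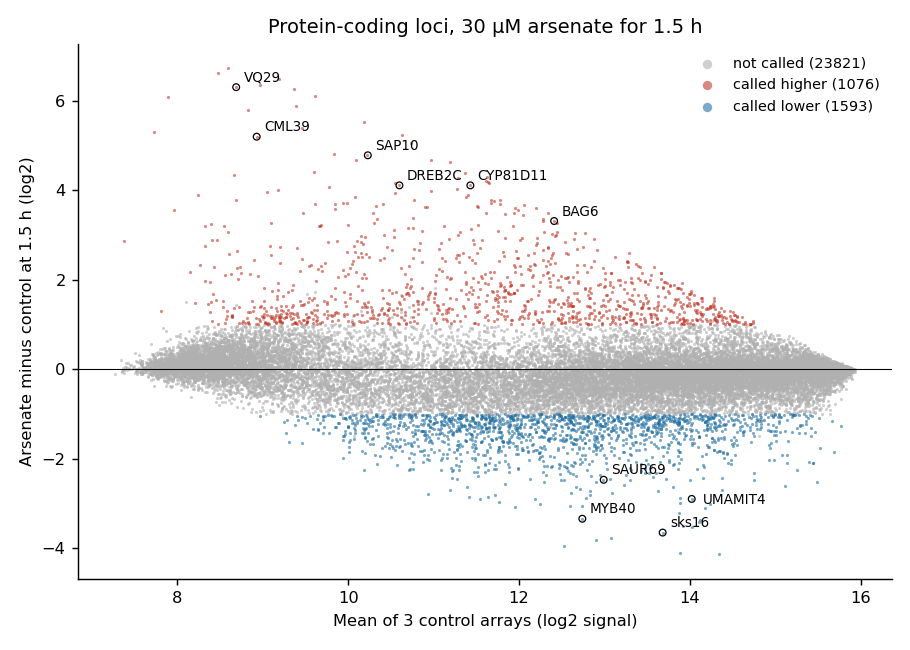
Each dot is 1 protein-coding locus, with the mean log2 signal of 3 control arrays on the horizontal axis and the arsenate minus control difference (log2) on the vertical axis. Loci called higher are red (1076) and loci called lower blue (1593). Rises from a low signal reach beyond 6 log2 units, and the room for a rise narrows toward the top of the scale.

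The share of calls in each direction differed with signal level. Loci were put in equal bins by mean signal. In the dimmest bin (7.21 to 9.66), 0.793% rose and 2.59% fell. In the next bin (9.66 to 12.17) 6.51% rose and 16.7% fell, with a median difference of -0.34. In the brightest bin (14.85 to 15.93) 2.45% rose and 0.0378% fell, which was 2 loci of 5298. Falls of at least 1 were thus rare among bright loci and frequent among fairly dim ones, and the part of signal level in the family counts below was not tested.

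**Figure D2:**
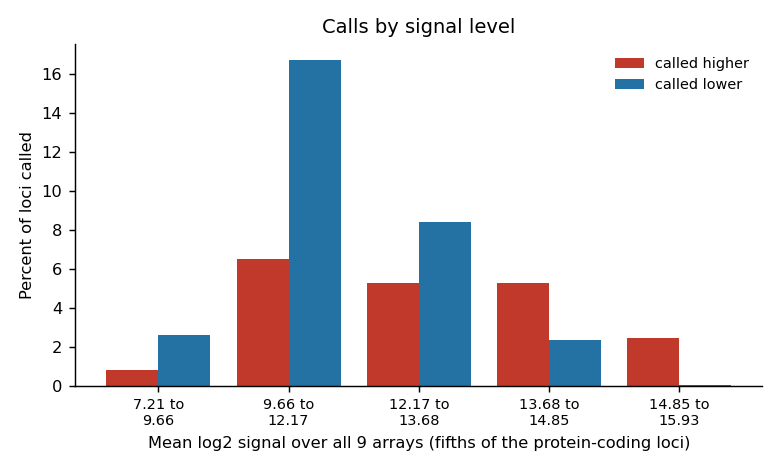
Bars give the percent of protein-coding loci called higher (red) or lower (blue) in equal bins of mean log2 signal over the 9 NimbleGen arrays, from dim to bright. Falls peak at 16.7% in the bin from 9.66 to 12.17 and nearly vanish in the brightest bin.

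Outside the heat-named genes, the named loci among the largest rises were transcription factors, calcium sensors, enzymes and others. Among the 25 largest rises that were kept on leaving out each array in turn, all of at least 4.11, 14 loci have only a locus code in the gene table and 11 have a name. The kinds of protein the 14 encode were not assessed, and heat shock proteins may be among them. Of the 25, 13 ended above 15 and 10 started below the lower quartile of every control array, so the ends of the scale limit the sizes of these rises. VQ29 (AT4G37710), of a family of proteins known to bind WRKY factors, read 8.57, 9.28 and 8.22 on the control arrays and 14.96, 15.12 and 14.89 on the arsenate arrays. It went from the dim part of the scale to near its top on every arsenate array. The difference was 6.30 ± 0.23 (SE, adjusted p = 1.37e-06). DDF1 (AT1G12610), an AP2 factor known to lower gibberellin, rose from 10.14, 10.50 and 9.64 to 15.12, 14.62 and 14.59, by 4.68 ± 0.23. RRTF1 (AT4G34410), a redox-responsive ethylene response factor, rose by 4.68 ± 0.29 and ERF13 (AT2G44840), of the same family, by 4.40 ± 0.19. DIR5 (AT1G64160), a dirigent protein of the kind that steers phenolic coupling, rose by 4.33 ± 0.19, and PP2-B14 (AT1G56250), an F-box protein of the phloem lectin type, by 4.16 ± 0.21. Control and arsenate arrays did not overlap for these genes, a condition for naming them that 53% of all protein-coding loci met.

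The 25 largest falls, with differences of -2.86 or further from 0, included 12 loci with a name. NCED4 (AT4G19170), a carotenoid cleavage dioxygenase, read 14.20, 14.13 and 14.01 on control arrays and 10.51, 11.10 and 10.62 on arsenate arrays, a difference of -3.37 ± 0.15 (adjusted p = 3.74e-06). It was bright in every control plant sample and below the array medians in every treated one. Wall genes were among the named falls: besides the expansin EXPA14 (AT5G56320) they held the beta-expansin EXPB1 (AT2G20750), the xyloglucan enzyme XTH6 (AT5G65730, -3.01 ± 0.24) and the multicopper oxidase-like sks15 (AT4G37160, -3.42 ± 0.28) and sks16 (AT2G23630, -3.65 ± 0.36). CYP718 (AT2G42850), a cytochrome P450, fell by 3.06 ± 0.25. Of those 25 falls, 10 ended below the lower quartile of every arsenate array, close to the floor of the scale.

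The DREB and CBF factors, AP2 proteins known for switching on drought, heat and cold genes, included 4 of 9 members that rose and 0 that fell, with a median of 1.03. On single arsenate arrays the family median lay at 1.552, 0.435 and 0.902 from the control mean. On control arrays it lay at 0.476, -0.282 and -0.121, so the family median overlapped between the groups. DREB2C (AT2G40340) read 10.93, 10.49 and 10.37 on control and 14.98, 14.65 and 14.48 on arsenate arrays, a rise of 4.11 ± 0.17 (adjusted p = 2.85e-06). DREB2A (AT5G05410), a main regulator of drought and heat genes, rose from 12.94, 12.36 and 12.05 to 15.84, 15.66 and 15.65, by 3.27 ± 0.20. For both, the arsenate arrays lay apart from every control array, which was a condition for naming them. DREB2A ended just under the ceiling of the scale, so the narrow spread of its arsenate values cannot be read. DREB19 (AT2G38340) rose by 1.89 ± 0.18. DREB2B (AT3G11020), named after its values were seen, differed by 1.39 (adjusted p = 0.02) from a low control level of 8.97.

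MYB factors moved in both directions: 8 of 125 rose (6.4%) and 21 fell (16.8%), with a median of -0.22. Their median level was 10.99, and these shares are close to the 6.51% and 16.7% of all loci in the bin from 9.66 to 12.17. MYB108 (AT3G06490), known from defence against fungi, read 11.76, 11.70 and 11.80 on control and 14.96, 14.58 and 14.96 on arsenate arrays, a rise of 3.08 ± 0.12. MYB15 (AT3G23250), known for cold and defence lignin, rose by 2.67 ± 0.12, and MYB41 (AT4G28110), known for cuticle and suberin genes, by 1.57 ± 0.37. The falls were led by MYB40 (AT5G14340), which read 13.13, 12.62 and 12.46 on control and 9.78, 9.29 and 9.14 on arsenate arrays, a difference of -3.34 ± 0.30. MYB34 (AT5G60890), a regulator of indole glucosinolates, fell by 2.38 ± 0.24 and MYB29 (AT5G07690), a regulator of aliphatic glucosinolates, differed by -1.81 ± 0.25. MYB66 (AT5G14750), known as WEREWOLF and 1 of the 11 root markers, fell by 1.61. Groups of arrays that did not overlap were a condition for naming these MYB genes, apart from the marker MYB66.

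Several other factor families had falls and few rises. Of 22 loci named as bHLH factors, 2 rose and 7 fell, with a median of -0.46. Their median level was 11.72, in the bin from 9.66 to 12.17, where 16.7% of all loci fell. BHLH92 (AT5G43650) rose from 8.80, 8.74 and 8.52 to 12.88, 12.23 and 12.28, by 3.77 ± 0.22. BNQ3 (AT3G47710), of the small non-DNA-binding bHLH proteins that promote growth, went the other way, from 11.05, 10.56 and 11.18 to 8.28, 8.20 and 7.97. Its fall was 2.78 ± 0.26, and its relative BNQ2 (AT5G15160) fell by 1.51 ± 0.24. The iron-deficiency regulator bHLH38 (AT3G56970) fell by 1.63 ± 0.36. Of 51 bZIP factors, 0 rose and 6 fell, among them bZIP5 (AT3G49760, -2.07 ± 0.16) and bZIP3 (AT5G15830, -1.91 ± 0.13). The bZIP median was -0.08 and turned to 0.06 with centring on protein-coding features, so the sign of that median depends on the scaling. Of 31 B-box factors, which act in light signalling, 2 rose and 8 fell (25.8%), with a median of -0.19. BBX27 (AT1G68190) fell by 2.02 ± 0.31 and BBX17 (AT1G49130) fell by 1.73 ± 0.20, while BBX8 (AT5G48250) rose by 1.74 ± 0.30 and BBX29 (AT5G54470) by 1.34 ± 0.13. The TCP growth regulators held 3 falls among 22 members, led by TCP19 (AT5G51910, -1.43 ± 0.17) and TCP2 (AT4G18390, -1.19 ± 0.14), and 0 rises.

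Among 100 NAC factors, 5 rose (5%) and 9 fell (9%), beside 4.06% and 6.01% over all protein-coding loci. Their median level was 11.79, in the bin where 6.51% of loci rose and 16.7% fell. Those that rose were led by NAC3 (AT3G15500, 1.85 ± 0.20) and NAC032 (AT1G77450, 1.41 ± 0.08), both of the stress-related branch. The 5 rises became 2 without arsenate replicate 1 and 3 without arsenate replicate 3, and the 9 falls became 5 with centring on protein-coding features. The falls included factors known for maturing the root cap. NAC015 (AT1G33280), known as BEARSKIN1, read 13.06, 13.04 and 12.55 on control and 11.20, 11.11 and 11.19 on arsenate arrays, a difference of -1.72 ± 0.17. NAC070 (AT4G10350), known as BEARSKIN2, fell by 1.59 ± 0.12. SMB (AT1G79580), the root cap regulator SOMBRERO, named after its values were seen, fell by 1.53. These falls ran beside that of the root markers, whose mean level fell on the same 3 arrays. Of 40 LBD factors, 2 rose (5%) and 3 fell (7.5%), close to the shares over all loci. ASL5 (AT2G30130) rose by 2.02 ± 0.20 and LBD14 (AT2G31310) fell by 2.28 ± 0.14.

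Calcium signalling changed in a few members and not across whole families. The calmodulin-like proteins, which sense calcium, had 4 of 14 members higher (28.6%) and 1 lower, with a median of 0.30, and the 1 fall was lost with either centring and on leaving out any array but arsenate replicate 1. CML39 (AT1G76640) read 9.15, 8.96 and 8.67 on control and 14.31, 14.25 and 13.82 on arsenate arrays, a rise of 5.19 ± 0.19 (adjusted p = 1.26e-06). Its chromosomal neighbour CML38 (AT1G76650) started brighter, at 12.96, 13.15 and 13.69, and ended at 15.64, 15.71 and 15.69, a rise of 2.42 ± 0.17. CML37 (AT5G42380) rose by 3.77 ± 0.10. The 3 genes started from different levels, and CML38 ended close to the ceiling of the scale. The sensor CBL1 (AT4G17615), which activates CIPK kinases at membranes, rose by 2.02 ± 0.11, whereas CBL10 (AT4G33000) fell by 1.37 ± 0.16 and the kinase CIPK5 (AT5G10930) fell by 2.26 ± 0.16. Of 34 calcium-dependent protein kinases, 0 rose and 1 fell, and 2 rose with either centring, without arsenate replicate 2 or without control replicate 3. The channel CNGC19 (AT3G17690), known for calcium entry in defence, rose by 2.38 ± 0.25 and CNGC4 (AT5G54250) fell by 1.35 ± 0.15.

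Receptor families differed in how many members rose. Of 34 cysteine-rich receptor kinases, 7 rose (20.6%) and 2 fell, and the falls numbered 1 on leaving out arsenate replicate 2 or any control array. CRK13 (AT4G23210) rose from 13.00, 12.06 and 12.26 to 14.65, 13.88 and 14.31, by 1.84 ± 0.33. CRK39 (AT4G04540) and CRK31 (AT4G11470) rose by 1.83 ± 0.18 and 1.58 ± 0.20. The median of the family was 0.00, so its rises came from a minority of members. Of 38 lectin receptor kinases, 5 rose and 4 fell, and the falls were 2 with either centring. LecRK-IX.2 (AT5G65600) rose by 2.75 ± 0.29 and LecRK-VIII.2 (AT5G03140) fell by 1.50 ± 0.17. Of 13 wall-associated kinases, 2 rose and 0 fell. Of 54 receptor-like proteins, 2 rose (3.7%) and 3 fell (5.56%), close to the shares over all loci.

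Peptide genes split by class, in subgroups formed after their values were seen. Phytosulfokine precursors, which give a small sulfated growth peptide, had 4 of 6 members higher and 0 lower, with a median of 1.49. PSK6 (AT4G37720) read 10.31, 10.08 and 10.05 on control and 12.98, 13.37 and 13.02 on arsenate arrays, a rise of 2.98 ± 0.13 (adjusted p = 3.25e-06). PSK2 (AT2G22860) rose by 2.39 ± 0.10 to the top of the scale. Of the 6 PROPEP genes, precursors of danger peptides released on damage, 4 rose and 0 fell, with a median of 1.13. PROPEP3 (AT5G64905) rose from 10.70, 10.31 and 10.25 to 12.80, 13.12 and 12.80, by 2.49 ± 0.15. CLE peptides, several of which guide meristems and vascular tissue, had 1 rise and 7 falls among 30, with a median of -0.47. CLE2 (AT4G18510) fell by 1.87 ± 0.26. RALF peptides, which act on wall-sensing receptor kinases, had 2 rises and 2 falls among 34 members, and RALFL27 (AT3G29780) fell by 1.91 ± 0.25. Over all 82 peptide genes, 11 rose and 10 fell. The rises were 7 on leaving out arsenate replicate 1 or control replicate 3. The falls were 6 without arsenate replicate 3 and 5 with centring on protein-coding features.

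**Figure D3:**
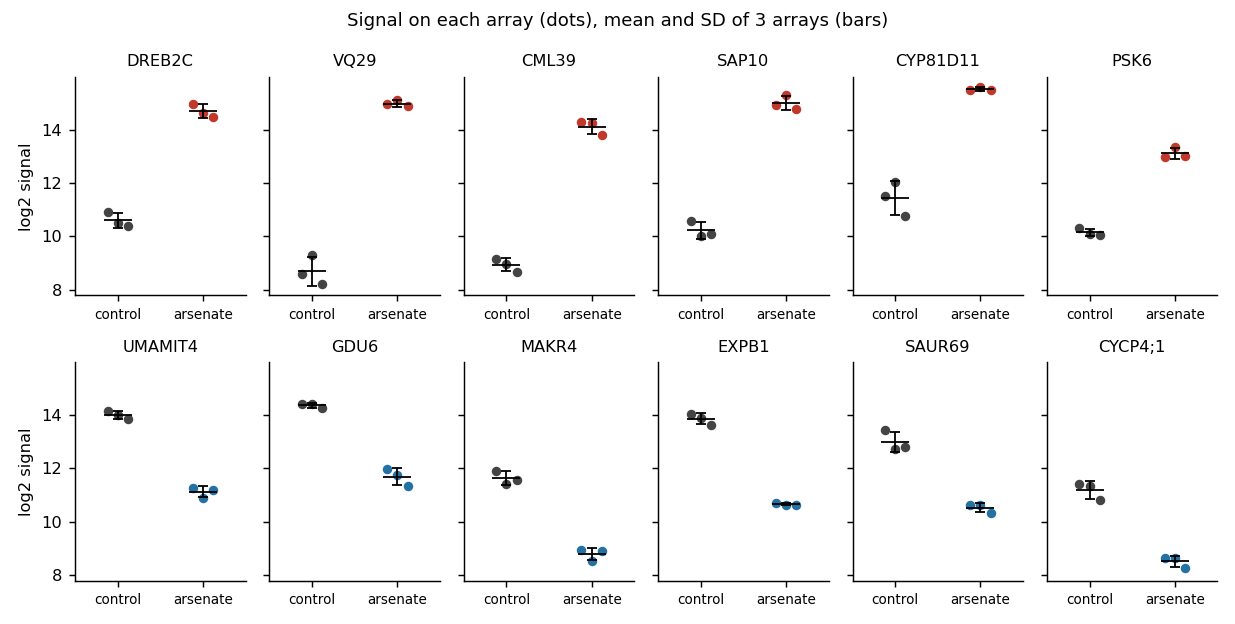
Dots are log2 signals on single arrays and bars the mean and SD of 3 arrays, for 12 genes named in the text. The upper row holds genes that rose and the lower row genes that fell. Control and arsenate arrays overlap in none of the 12, which was a condition for naming these genes.

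Protein care outside the heat shock families also changed in single members. BAG6 (AT2G46240), a co-chaperone that binds HSP70 and calmodulin, read 12.48, 12.19 and 12.56 on control and 15.70, 15.71 and 15.75 on arsenate arrays, a rise of 3.31 ± 0.10 (adjusted p = 5.61e-07). BAG5 (AT1G12060) rose by 1.34 ± 0.11 and 1 of the 7 BAG genes fell, a call lost without arsenate replicate 3, without control replicate 2 or with centring on protein-coding features. SAP10 (AT4G25380), an A20/AN1 zinc finger protein, had a control mean of 10.23 and read 14.93, 15.30 and 14.79 on arsenate arrays, a rise of 4.78 ± 0.19. PMZ (AT3G28210), of the same family, rose by 3.48 ± 0.11. These 2 of 4 family members stood clear of their control arrays by more than 3 log2 units. ATFKBP65 (AT5G48570), a prolyl isomerase also known as ROF2, rose by 3.05 ± 0.11 and was the only 1 of 22 prolyl isomerases called. ROF is among the heat names left out of the largest changes, so this rise is not one outside the heat-named genes. PUB22 (AT3G52450), a U-box ubiquitin ligase known to dampen immune responses, rose by 2.30 ± 0.20, 1 of 23 U-box genes. MSRB8 (AT4G21840), which repairs oxidised methionine, rose from 11.75, 11.19 and 11.59 to 15.37, 15.09 and 15.02, by 3.65 ± 0.16, 1 of 14 such reductases.

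Much of the general machinery of protein turnover and synthesis had no calls. Of 37 proteasome subunits, 30 autophagy genes, 36 ubiquitin-conjugating enzymes, 52 ribosomal protein loci, 24 translation initiation factors and 30 ribosome biogenesis factors, 0 rose and 0 fell by at least 1. At an adjusted p under 0.05 alone, the proteasome subunits had 2 higher and 0 lower, the autophagy genes 1 and 2, the ubiquitin-conjugating enzymes 4 and 4, the ribosomal proteins 1 and 0, the initiation factors 0 and 3 and the biogenesis factors 1 and 1. In that family 1 ubiquitin-conjugating enzyme passed the size threshold too with either centring and without arsenate replicate 3, control replicate 1 or control replicate 3. Their median levels lay high, at 15.47 for the proteasome and 15.62 for ribosomal proteins, and 30 of the 37 and 36 of the 52 were above 15. Such levels leave little room for a rise on this scale, and only 0.0378% of loci fell in the brightest bin. The autophagy genes, with a median level of 14.44 and 8 of 30 above 15, had more room and still ranged only from -0.60 to 0.23. Histones (23 loci) and tubulins and actins (24 loci) had 0 calls as well, with 12 and 20 of them above 15, where calls in either direction were few.

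Detoxifying enzymes were divided. Of 64 UDP-glycosyltransferases, which attach sugars to small molecules, 10 rose (15.6%) and 6 fell, and the falls were 3 without arsenate replicate 1. The family's median of -0.07 became 0.01 and 0.07 with the 2 centrings. The UGT73 group, a subgroup formed after the values were seen and known for enzymes that act on foreign compounds, had 5 of 11 members higher and 0 lower, with a median of 0.90. UGT73C7 (AT3G53160) rose from 9.24, 9.53 and 9.55 to 11.44, 11.89 and 11.61, by 2.21 ± 0.19. UGT74E2 (AT1G05680), which glycosylates an auxin precursor, rose from 12.41, 12.28 and 12.56 to 14.55, 15.15 and 14.69, by 2.38 ± 0.20. The UGT76 group had 3 of 8 members higher, with UGT76E2 (AT5G59590) up by 2.02 ± 0.16. UGT76E1 and UGT76E2 started low on the scale, at 9.19 and 8.71. They have neighbouring locus codes, as do UGT73B4 and UGT73B5, and UGT73B2 and UGT73B3, which all rose. Such related copies may share array signal. The remaining 45 members held 2 rises and all 6 falls, including UGT75B2 (AT1G05530, -1.77 ± 0.18) and the anthocyanin enzyme UF3GT (AT5G54060).

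Cytochrome P450 enzymes, haem-containing oxygenases of hormone, defence and detoxifying pathways, had 10 rises (4.18%) and 25 falls (10.5%) among 239 loci, with a median of -0.32. Over all protein-coding loci 4.06% rose and 6.01% fell. The family's median level was 12.23, at the low edge of the bin from 12.17 to 13.68, where 5.27% rose and 8.42% fell. These shares are close to those of the family. The 239 loci do not hold CYP718, described above, because members were matched by symbols with a letter after the family number. CYP81D11 (AT3G28740), known as inducible by foreign compounds, read 11.50, 12.03 and 10.75 on control and 15.49, 15.61 and 15.49 on arsenate arrays. Its arsenate values sat just under the ceiling, so their narrow spread cannot be read, and the rise was 4.11 ± 0.27 (adjusted p = 2.42e-05). The CYP94 group, again formed after the values were seen, had 3 of 6 members higher and 0 lower. CYP94B3 (AT3G48520) rose by 3.21 ± 0.22 and CYP94B1 (AT5G63450) by 2.60 ± 0.29, and both are known to oxidise the active jasmonate hormone. CYP94C1 (AT2G27690), which acts in the same turnover and is named after its value was seen, rose by 2.57. In the CYP71, CYP705 and CYP706 groups falls numbered 6 of 49, 3 of 24 and 3 of 7 members, with 0 rises. CYP705A4 (AT4G15380) fell by 2.29 ± 0.40, and CYP706A6 (AT4G12320) fell by 2.19 ± 0.17.

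Transport and hydrolysis of small molecules added single strong rises. AtDTX50 (AT5G52050), a multidrug and toxin extrusion carrier known to export abscisic acid, read 11.79, 11.44 and 12.09 on control and 15.66, 15.37 and 15.60 on arsenate arrays, a rise of 3.77 ± 0.16. Of 44 ABCG transporters 1 rose and 2 fell, of 15 ABCC transporters 1 rose and 2 fell, and of 29 ABCB transporters 0 rose and 1 fell. The ABCG falls were 0 with either centring or without control replicate 1, and between 1 and 4 on leaving out any other array. The ABCC falls were 1 with either centring and on leaving out any array but arsenate replicate 3, and the ABCB falls 2 without arsenate replicate 3, control replicate 2 or control replicate 3. Of the rises, ABCG40 (AT1G15520), a known abscisic acid importer, rose by 1.28 ± 0.20 and ABCC11 (AT1G30420) by 1.42 ± 0.17. Of 47 beta-glucosidases, a family added after the values were seen, 6 rose (12.8%) and 2 fell. BGLU27 (AT3G60120) rose from 9.96, 9.30 and 9.17 to 12.88, 13.20 and 12.85, by 3.50 ± 0.20, and BGLU32 (AT5G24550) by 2.12 ± 0.21 from 8.63, a level at which pseudogene loci also stood higher. Nudix hydrolases, which cleave nucleotide derivatives, had 3 rises and 1 fall among 27, led by NUDT4 (AT1G18300, 2.84 ± 0.11). Thioredoxins (15), metallothioneins and ferritins (12) had 0 calls, with 9 and 7 of them at levels above 15. Of 9 glutaredoxins 1, GRX480 (AT1G28480), rose by 1.18 ± 0.07.

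**Figure D4:**
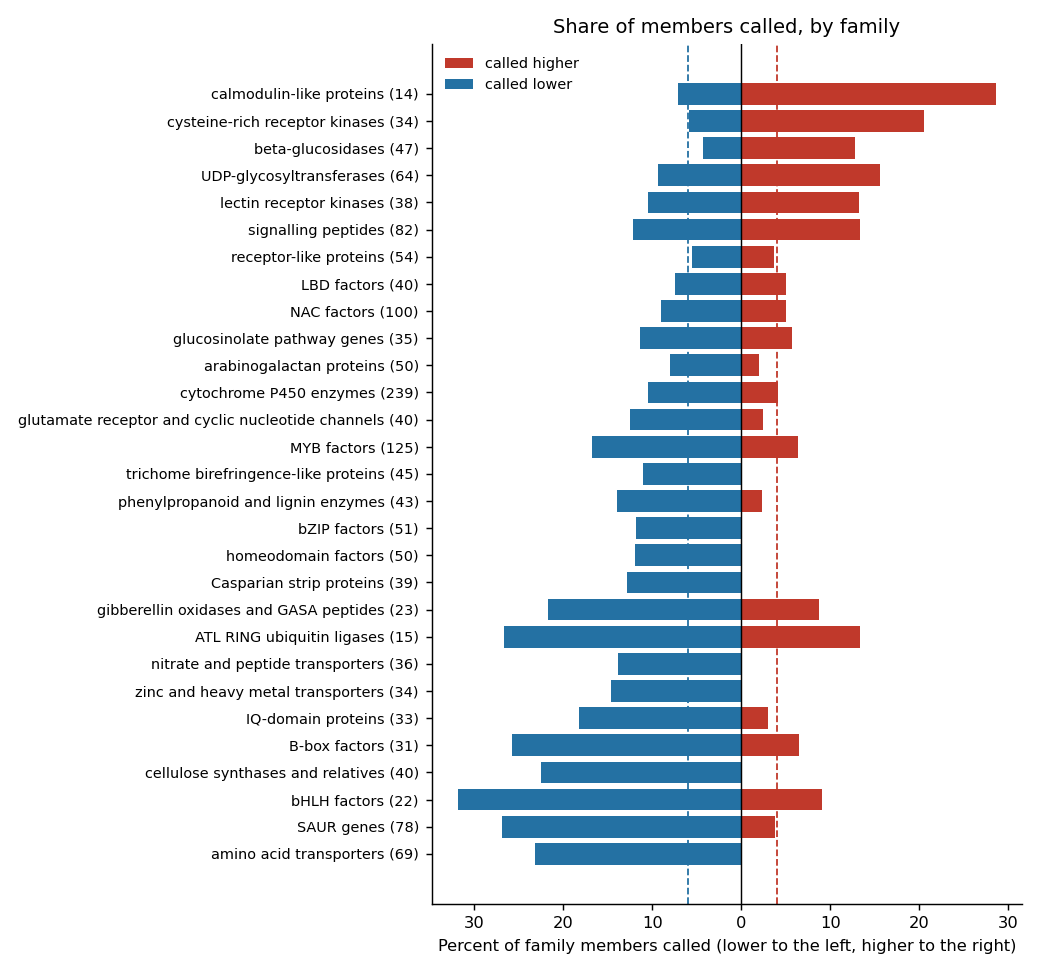
Bars give the percent of members called higher (red, right) or lower (blue, left) for families of at least 10 members with at least 5 calls, with the number of members in brackets. Dashed lines mark the shares over all protein-coding loci, 4.06% and 6.01%. Families are ordered by the higher share minus the lower share. Among the families shown, rises reach furthest for calmodulin-like proteins (28.6%) and falls for bHLH factors (31.8%), followed by SAUR genes (26.9%). The median levels of these last 2 families, 11.72 and 11.33, lie in the bin where 16.7% of all loci fell.

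Among growth hormone genes, falls were most frequent in the SAUR family. SAUR genes, small early auxin genes of which several promote cell expansion, had 3 rises (3.85%) and 21 falls (26.9%) among 78 loci, with a median of -0.69 and a median level of 11.33. On single arsenate arrays the family median lay at -0.52, -0.40 and -0.86 from the control mean, and on control arrays it lay between -0.09 and 0.11. SAUR69 (AT5G10990) read 13.43, 12.72 and 12.81 on control and 10.63, 10.61 and 10.32 on arsenate arrays, a difference of -2.47 ± 0.24. SAUR37 (AT4G31320) fell by 2.32 ± 0.19 and SAUR38 (AT2G24400) fell by 2.23 ± 0.09. SAUR79 (AT2G35290) went up, by 1.48 ± 0.16. The falls included 5 of the tandem genes from SAUR63 to SAUR68, near-identical copies whose signals the array may not separate. Of 29 Aux/IAA repressors, 0 rose and 3 fell (median -0.40), and of 23 auxin response factors 0 rose and 4 fell (median -0.40). ETT (AT2G33860), also known as ARF3, fell by 1.28 ± 0.13, and ARF8 (AT5G37020) fell by 1.25 ± 0.17. Of 10 GH3 enzymes, which join auxin or jasmonate to amino acids, 0 were called.

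Of 23 gibberellin genes 2 rose and 5 fell. The rises were 1 without control replicate 3 and 4 with either centring, and the falls 3 with the dimmest features left out. The synthesis gene GA3OX1 (AT1G15550) read 13.62, 14.21 and 13.75 on control and 12.03, 12.37 and 12.28 on arsenate arrays, a difference of -1.63 ± 0.17. GA2OX6 (AT1G02400), which inactivates gibberellin, rose from 14.36, 14.13 and 13.65 to 15.80, 15.66 and 15.69, by 1.67 ± 0.16. The synthesis gene GA20OX1 (AT4G25420), named after its values were seen, fell by 1.48, and the gibberellin-responsive peptide genes GASA6 (AT1G74670) and GASA5 (AT3G02885) differed by -2.07 ± 0.19 and -1.50 ± 0.21. Of the cytokinin enzymes, CKX7 (AT5G21482), a cytokinin oxidase, was the 1 of 17 that fell (5.88%), by 1.52 ± 0.11.

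The membrane-associated kinase regulators, P-type cyclins and IQ-domain proteins were added after their values were seen and are described only. Of 7 membrane-associated kinase regulators 0 rose and 4 fell, among them BKI1 (AT5G42750), the inhibitor of the brassinosteroid receptor, named after its value was seen, with -1.22. MAKR4 (AT2G39370) read 11.92, 11.42 and 11.55 on control and 8.92, 8.52 and 8.91 on arsenate arrays, a difference of -2.85 ± 0.15. Of 7 P-type cyclins 0 rose and 4 fell, and CYCP4;1 (AT2G44740) went from 11.41, 11.35 and 10.80 to 8.62, 8.64 and 8.25, a difference of -2.69 ± 0.24. IQ-domain proteins, calmodulin-binding proteins at microtubules, had 1 rise and 6 falls among 33, led by IQD19 (AT4G14750, -2.62 ± 0.17). DNA replication factors, a family of the first list, had 0 rises and 4 falls among 48 (8.33%), which were 2 without arsenate replicate 1, without control replicate 2 or with centring on protein-coding features.

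Cell wall families had falls in some classes of gene and none in others. Of 40 cellulose synthases and their relatives 0 rose and 9 fell (22.5%), and the falls lay outside the cellulose synthases themselves. Of 6 CSLB genes, cellulose synthase-like genes of unsettled product, 5 fell, with a median of -1.67. Of 10 CESA genes, the cellulose synthases, 0 were called, with a median of -0.13 and a median level of 14.88. Below the threshold, CESA4, IRX1, CESA9 and IRX3 differed by -0.68, -0.67, -0.63 and -0.57, and CESA10 by -0.16. CESA1, CESA2, CESA5, CESA6 and CEV1 had control levels of 15.60 to 15.87 and differed by -0.11 to 0.02. Falls of at least 1 were rare at such levels, and the part of signal level in this contrast was not tested. CSLB03 (AT2G32530) read 12.44, 13.08 and 12.85 on control and 10.30, 10.58 and 10.75 on arsenate arrays, a difference of -2.25 ± 0.20. CSLB04 (AT2G32540), next to it, fell by 2.07 ± 0.28 and ATCSLB05 (AT4G15290) fell by 1.73 ± 0.17. These related copies may share array signal. The subgroups were formed after the values were seen.

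Expansin relatives went both ways. EXPB1, a beta-expansin that loosens walls, read 14.06, 13.91 and 13.65 on control and 10.69, 10.64 and 10.64 on arsenate arrays, a difference of -3.22 ± 0.11 (adjusted p = 8.72e-07). The expansin-like EXLA3 (AT3G45960) rose from 12.11, 11.84 and 11.93 to 14.75, 14.55 and 14.53, by 2.65 ± 0.10, and EXLB2 (AT4G30380) by 2.88 ± 0.56. The SD of EXLB2 was 0.099 on control and 0.138 on arsenate arrays, so its standard error rests on more than the wild-type arrays. Trichome birefringence-like proteins, which acetylate wall polymers, had 0 rises and 5 falls among 45 (median -0.36), with TBL19 (AT5G15900) down by 2.57 ± 0.30, and the falls were 3 with centring on protein-coding features. Casparian strip proteins and relatives, of the root endodermis and other membranes, had 0 rises and 5 falls among 39 (median -0.52), with CASPL1A1 (AT1G14160) down by 1.49 ± 0.16, and these falls too were 3 with that centring. Among enzymes of phenylpropanoids and lignin, 1 rose and 6 fell of 43. The laccase LAC6 (AT2G46570) fell by 1.71 ± 0.15 and CCR2 (AT1G80820), a cinnamoyl-CoA reductase known from defence, rose by 2.18 ± 0.10. PER4 (AT1G14540), a secreted peroxidase, rose by 3.12 ± 0.23 and was the 1 of 13 class III peroxidases called. Extensins and proline-rich proteins (14) had 0 calls, with 13 of them above 15.

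Transporter families differed in their falls. Amino acid transporters had 0 rises and 16 falls (23.2%) among 69 loci, with a median of -0.28, and 1 or 2 rises with centring, 2 on leaving out arsenate replicate 2 or 1 on leaving out control replicate 3. The falls gathered in the UMAMIT transporters, known for moving amino acids out of cells and vacuoles. Of these 15 of 44 fell (median -0.55, median level 12.57), against 1 of 25 other carriers (median -0.09, median level 14.78). The subgroups were formed after the values were seen. Falls took 8.42% of all loci in the bin from 12.17 to 13.68 and 2.34% in that from 13.68 to 14.85. The part of signal level in this contrast was not tested. UMAMIT12 and UMAMIT13, and UMAMIT44 to UMAMIT47, all fell and have neighbouring or near locus codes. Such related copies may share array signal. UMAMIT4 (AT3G18200) read 14.16, 14.02 and 13.87 on control and 11.28, 10.89 and 11.20 on arsenate arrays, a difference of -2.89 ± 0.12 (adjusted p = 2.68e-06). UMAMIT34 (AT4G30420) and UMAMIT46 (AT3G28070) had differences of -2.46 ± 0.22 and -2.40 ± 0.24. Glutamine dumpers, small membrane proteins that raise amino acid export and a family added after its values were seen, had 0 rises and 5 falls among 7. GDU6 (AT3G30725) read 14.44, 14.41 and 14.26 on control and 11.97, 11.74 and 11.35 on arsenate arrays, a difference of -2.69 ± 0.15, and GDU3 (AT5G57685) fell by 2.60 ± 0.16. The 5 that fell started between 14.37 and 15.11 and ended between 11.69 and 13.30.

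**Figure D5:**
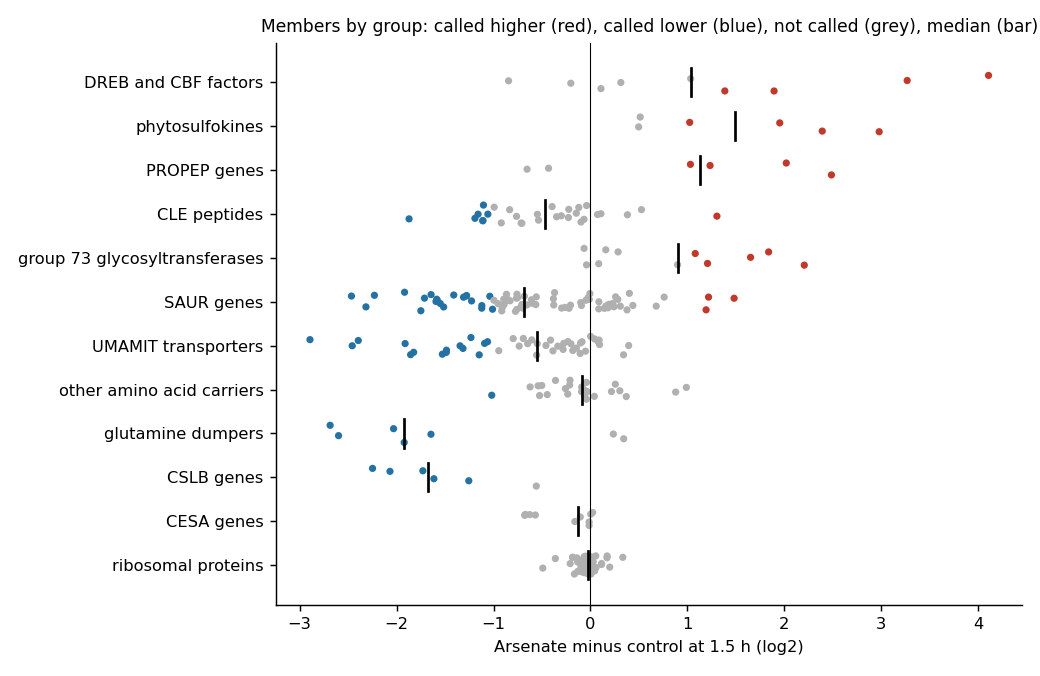
Each dot is 1 member's arsenate minus control difference (log2), red if called higher, blue if called lower and grey if not called, and the black bar is the group's median. Phytosulfokines and PROPEP genes reach right, glutamine dumpers and CSLB genes left, and ribosomal proteins stay near 0.

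Nitrate and peptide transporters had 0 rises and 5 falls among 36, with AtNPF6.4 (AT3G21670) at -1.93 ± 0.28 and the high-affinity type NRT2.3 (AT5G60780) by 1.36 ± 0.17. The control arrays of AtNPF6.4 spread from 13.37 to 14.57 and its arsenate arrays from 11.76 to 12.04. Groups that stay apart were a condition for naming it. Zinc and heavy metal transporters had 0 rises and 5 falls among 34 (median -0.31). ZIP3 (AT2G32270), of the zinc uptake family, fell by 1.61 ± 0.16 and HMA2 (AT4G30110), a zinc-exporting ATPase, fell by 1.32 ± 0.25. Of 29 potassium transporters and channels, 0 rose and 2 fell, KUP8 (AT5G14880) and the phloem channel KT2/3 (AT4G22200), which differed by -2.07 ± 0.31. Of 44 sugar transporters 1 rose (PMT2, AT2G16130, 1.19) and 2 fell (4.55%), with the sucrose exporter SWEET13 (AT5G50800) at -1.73 ± 0.19. Plasma membrane aquaporins (13) had 0 calls and 10 of them above 15. Of 34 proton and calcium ATPases and exchangers 3 rose and 1 fell; the rises were 1 without control replicate 2, and the fall was lost with either centring, without arsenate replicate 3 or without control replicate 1. The median of the root marker list, -1.13, was lower than that of any transporter family named here apart from the glutamine dumpers (-1.92).

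WRKY6 (AT1G62300), the factor in the title of the series, read 15.61, 15.50 and 15.55 on control and 15.82, 15.85 and 15.85 on arsenate arrays. The groups did not overlap, and the difference of 0.29 ± 0.06 (adjusted p = 0.00998) lay under the threshold of 1 at the top of the scale. Among 13 genes known for their rise under low oxygen, a list added after the values were seen, 3 rose and 0 fell: the ethylene response factor ERF71 (AT2G47520, 2.50 ± 0.22), SRO5 (AT5G62520, 1.78 ± 0.09) and the haemoglobin HB1 (AT2G16060, 1.16 ± 0.10). All 13 differed upward, with a median of 0.57. At an adjusted p under 0.05 alone 10 of them were higher, beside 14.3% of all protein-coding loci. ADH1 (AT1G77120), the alcohol dehydrogenase that marks low oxygen and is named after its value was seen, differed by 0.14, at the low end of the list. Of the 13, 12 had a mean level above 15, which leaves little room for a rise.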

How the data were processed

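The authors' deposited values are log2 expression from NimbleGen arrays, made with RMA per the submitters' processing notes with no version stated. RMA quantile-normalizes, which removes a shift common to most transcripts. The feature names gave 32627 loci, 31993 of them matched to RefSeq's TAIR10.1 gene table, which supplied symbols and gene types. No column of the table was left unused, and the 8 h arrays were not used here. limma (version 3.58.1, R 4.3.3) was fitted to all 9 NimbleGen arrays in 3 groups, two-sided, with Benjamini-Hochberg adjustment over all features, and tested on simulated data.

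Families (76 listed, 11 added after the values were seen) hold loci whose symbol or synonym bears the family name, so they are incomplete, and 146 matches that rested on names shared with other families were taken out. Members, lists and rules were chosen with earlier results of these data known. Named genes were the 25 largest rises and falls outside heat names and up to 3 per family and direction, each with groups that did not overlap and a call kept without any 1 array and with the replicate block, plus WRKY6 and the markers. CRB and CRC were left out of the seed list because the table pairs these symbols with other genes. Same-numbered arrays deviated together (correlations 0.31 to 0.52), by the numbers in the titles.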

Additional observations from a re-analysis of the deposited data

How the results depend on the processing

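The count of called protein-coding loci (2669) lay between 2134 and 2787 over the 10 other settings and between 2413 and 2688 on leaving out each array, and the count of called features (4508) between 3052 and 4822 and between 3132 and 4728. With the replicate number as a block, which the pairing check bears on, these counts were 2714 and 4614. Apart from WRKY6, the 230 named genes were chosen for keeping their call with the block and without each array. Those settings could therefore take no call from them. Among features, the rises alone (2640) fell to 1449 without control replicate 1, 1313 without control replicate 3, 1508 without arsenate replicate 1 and 1645 without arsenate replicate 3. Under the settings that did not enter the choice of named genes, 0 of the 230 reversed and 4 lost the call. These were 2 with centring on protein-coding features and 2 with the mean of all features of a locus. Named genes other than WRKY6 differed by at least 1, and no setting moved the median difference by more than 0.14. Most of these settings could thus hardly reverse a gene, and the 0 reversals say little about steadiness. Of 29 family counts of 5 or more, 5 moved by over 1.5 times on leaving out an array, 6 on centring and 0 with the block; the cause was not tested. Family counts under 5 rest on few loci, and many of them moved by over 1.5 times. Leaving out the dimmest features removes members and brought the B-box falls from 8 to 5, the phenylpropanoid and lignin falls from 6 to 2, the gibberellin falls from 5 to 3, the P-type cyclin falls from 4 to 1 and the beta-glucosidase rises from 6 to 3. Among further features of called loci, 296 of 310 had the sign of the brightest one and 190 were called with it. Promoter motifs, planned, were not run, because no promoter sequences were used here. Bright loci (17.2% above 15) and dim ones limit what could be seen.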

Other observations

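Runs of at least 4 adjacent protein-coding loci called in the same direction were counted after the data were seen, with the order of loci taken from the RefSeq table. There were 6 such runs. The longest steady one held 5 rises in a row from AT3G23220 to AT3G23250: the ethylene response factor genes ESE1, TDR1 and ERF1, the unnamed AT3G23245 and MYB15, with differences between 1.35 and 3.85. A run of 4 rises from AT2G29420 to AT2G29450 held the glutathione S-transferase genes GSTU7, GSTU6 and GSTU5 and an unnamed locus, with differences between 1.54 and 2.56. A run of 4 falls from AT2G29290 to AT2G29320, a short way from it in the same locus order, lay between -2.17 and -1.20. A run of 5 rises from AT5G36540 to AT5G36659 had nearly equal differences, between 1.69 and 1.77, and 0 of its calls were kept on leaving out each array. Related neighbours may share array signal, and the share of these runs that reflects this was not tested.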
